A study of Drosophila melanogaster with 4 samples.

Results

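Enriched regions for monomethylated lysine 20 of histone H4 (H4K20me1) on the left arm of chromosome 2 (2L) of Drosophila melanogaster numbered 1218, of 6850 in the whole combined list. They were all the rows of that list that lie on 2L and are annotated as enrichment. No measured value was used to choose rows on the arm, beyond the authors' own call of enrichment. The arm itself was chosen with earlier results of these data known. Positions are on FlyBase release 5 of the genome, on which 2L is 23.0 Mb long. Position 1 lies at the telomere end and the last position next to the centromere.

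H4K20me1 was profiled by chromatin immunoprecipitation with sequencing (ChIP-seq) in wild-type Oregon-R embryos aged 14 to 16 h, with lot 4 of the antibody. The 4 samples were 2 ChIP replicates and 2 inputs, the inputs being DNA that was not immunoprecipitated. All of them shared strain, genotype and age. Regions were listed for each ChIP replicate and for the replicate set, here the combined list, and no list of the inputs was analysed here. The chromatin came from whole embryos, so a region reports an average over cell types, and fewer marked cells cannot be told apart from less mark per cell. The labels number the replicates without naming a separate origin for each, so their spread measures these samples and may be technical. Without read counts in the lists, sequencing depth is unknown.

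H4K20me1 is placed by the methyltransferase PR-Set7, which acts around mitosis and is needed for normal passage through the cell cycle. Other enzymes convert the mark to the dimethylated and trimethylated forms, and in flies proteins with MBT repeats can bind the lower methylation states. In many animals the mark spreads over the bodies of genes, which gives broad enriched stretches rather than sharp peaks. Genes under the regions are not named here, since the available gene table is on Release 6.

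The authors deposited 1 score for every region. It is taken here as a log2 ratio, on which 1 is a 2-fold ratio, a reading settled on the values themselves. In the combined list 638 pairs of scores differed, within 1e-09, by the base-2 logarithm of a small whole-number ratio, against 0 pairs at natural or base-10 logarithms. The sources used here give neither the reference of the ratio nor its scaling.

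Over the arm, the mark formed many short regions and a few very wide ones. Regions covered 25.2% ± 0.630 (SD, n = 2) of 2L in the replicates. Coverage is the share of bases that lie inside a region. Replicate 1 held 1096 regions over 5.69 Mb and replicate 2 also held 1096, over 5.89 Mb, while the combined list spread over 6.69 Mb (29.1%). The first region began at 7204 in replicate 1, at 7126 in replicate 2 and at 7129 in the combined list. The last one ended at 22961153, 22961134 and 22961196 in the same order, which left 50391, 50410 and 50348 bp before the end of the sequence.

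The median region of the combined list was 2912 bp wide, and 10% exceeded 11855 bp. The widest reached 82.6 kb. Median widths in the replicates were 2898.5 and 2981 bp. Regions under 2 kb made up 31.1% of the combined list and held 8.65% of its bases, whereas the 50 regions of 20 kb or more, called wide here, made up 4.11% and held 26.9%. The replicates held 45 wide regions each, with 25.4% and 25.2% of their covered bases. The 164 widest regions of the combined list, and the 163 widest of each replicate, held 50% of the bases covered in their list.

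Wider regions had higher scores. Regions under 2 kb had a median score of 0.34 in the combined list, those of 2 to 5 kb 0.60, those of 5 to 10 kb 0.99, those of 10 to 20 kb 1.14 and the wide ones 1.45. In replicate 1 the same classes had medians of 0.47, 0.78, 1.17, 1.45 and 1.55, and in replicate 2 they had 0.48, 0.75, 1.13, 1.31 and 1.63. Score and width were correlated across regions, with a Spearman coefficient of 0.811 in the combined list (1218 regions), 0.833 in replicate 1 and 0.824 in replicate 2 (1096 each). These are descriptions over regions that share a library, and the sources do not say whether a score is a mean or a maximum over its region.

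Coverage fell from the telomere end toward the centromere in a stepwise and uneven way. The outermost 1 Mb was covered over 40.8% in replicate 1 and 40.4% in replicate 2, and the block from 22 to 23 Mb over 4.12% and 4.21%. Between them, coverage swung back several times. It was 36.5% and 35.7% from 8 to 9 Mb, dropped to 7.03% and 6.39% from 15 to 16 Mb, and climbed again to 35.8% and 37.7% from 19 to 20 Mb. The blocks from 8 and from 19 Mb could not be ranked, since their means differed by less than the replicates of the latter, while the sparse blocks lay far below both in each replicate.

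**Figure D1:**
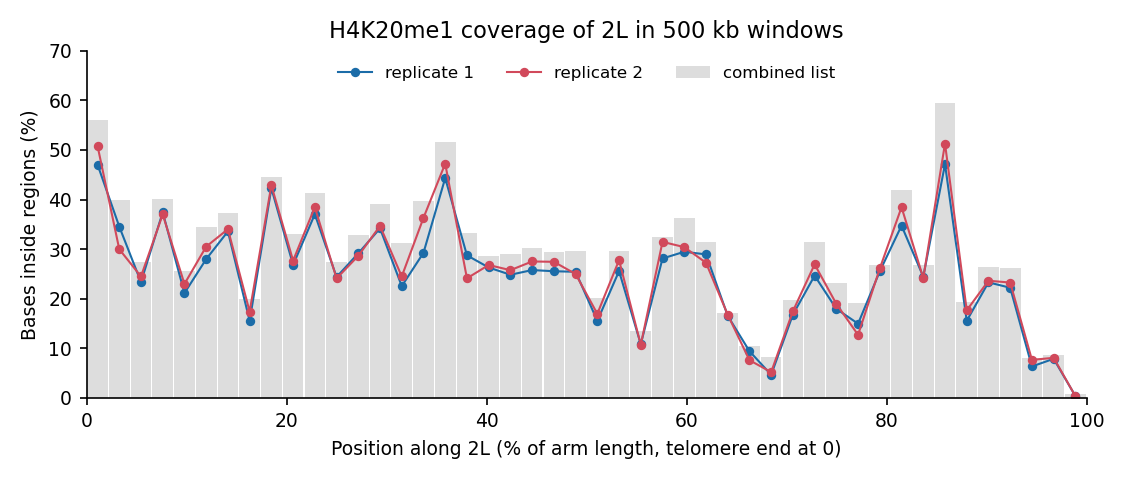
Share of bases inside H4K20me1 regions in the 46 full windows of 500 kb along 2L, from the telomere end at 0 to the centromere end at 100% of the arm length. Lines with points show the 2 replicates and bars show the combined list. The 2 replicates trace the same peaks, at 47.0% and 50.8% in the first window and 47.1% and 51.3% in the window from 19.5 to 20 Mb, and the same troughs near 15.5 Mb and at the centromere end.

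Cut into equal parts of 7.67 Mb, the arm lost coverage from one part to the next. The telomeric part was covered over 31.0% ± 0.589 (SD, n = 2), the middle part over 25.3% ± 0.589 and the centromeric part over 19.2% ± 0.711. The number of regions fell alongside, from 55.3 per Mb in both replicates to 47.5 ± 0.277 and 40.1 ± 0.277. Widths and scores moved much less. Median width was 2966 bp ± 83.4, 3003 bp ± 21.6 and 2812 bp ± 83.4 in the same order. The median score was 0.759 ± 0.00482, 0.762 ± 0.0302 and 0.717 ± 0.00256. The arm thus carried fewer regions toward the centromere, while the typical region kept a similar width. Its score was slightly lower in the centromeric part, by more than the replicate spread.

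Wide regions did thin out. The combined list held 23 in the telomeric part, 19 in the middle and 8 in the centromeric part, and each replicate held 22, 16 and 7. Past 21021462, over the last 1.99 Mb, each of the lists was without a wide region, although regions of 19353, 19346 and 18962 bp came close to the bound. The longest interior stretch without a wide region ran from 14689911 to 16602568 (1.91 Mb), where the widest region measured 19245 bp in the combined list and 16126 and 15570 bp in the replicates. This stretch was picked after its values were seen.

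Next to the telomere and next to the centromere the layout was opposite. The distal 2 Mb was covered over 35.6% ± 0.0164 (SD, n = 2), against 24.2% ± 0.691 for the rest of the arm. The proximal 2 Mb was covered over 8.93% ± 0.453, against 26.7% ± 0.647 for the rest. It held 47 regions in replicate 1 and 49 in replicate 2, or 24.0 per Mb ± 0.707, which is less than the 49.9 per Mb ± 0.0673 of the remaining arm. The few regions there were not weak. Replicate 1 gave them a median score of 0.88 and replicate 2 one of 0.81, while the rest of the arm had 0.75 and 0.74, and in the combined list it was 0.57 against 0.56.

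Among windows of 500 kb, the 5 most covered did not adjoin one another. From 19500001 to 20000000, 47.1% and 51.3% of bases were covered in the replicates, a mean of 49.2% ± 2.94 (SD, n = 2), by 47 regions in each. The outermost window, up to 500000, had 48.9% ± 2.67, and the one from 8000001 to 8500000 had 45.8% ± 2.06. Those from 4000001 to 4500000 and from 5000001 to 5500000 followed, with 42.6% ± 0.418 and 37.7% ± 1.00. The first pair of these windows could not be ranked, because their difference was smaller than the spread between replicates. The dense windows were built differently. The window from 19.5 Mb packed 52 regions of the combined list with 1 wide region among them, and the one from 4 Mb held 22 regions of which 4 were wide.

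The 5 least covered windows were 3 at the centromere end and 2 around 15.5 Mb. From 22500001 to 23000000 each replicate had 1 region, which covered 0.366% in replicate 1 and 0.355% in replicate 2. The windows from 21500001 and from 22000001 stood at 6.99% ± 0.936 (SD, n = 2) and 7.97% ± 0.143. Well inside the arm, the window from 15500001 was covered over 4.91% ± 0.381 and the one from 15000001 over 8.51% ± 1.29. All 46 windows held some covered bases, and the median window had 25.8%. The 17 most covered windows contained 50% of the covered bases.

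At 100 kb the contrast was sharper. Of 230 full windows, 32 were covered over at least 50% and 50 over less than 5%, by the mean of the replicates. No region of any list reached into 21 of them. The most covered were from 19900001 to 20000000 (84.6% ± 2.64, SD, n = 2), the one starting at 14600001 (82.6% ± 0.218) and from 5100001 to 5200000 (81.4% ± 4.54). Next were those from 4500001 to 4600000 (77.3% ± 2.57) and from 18300001 to 18400000 (72.4% ± 0.261), and the latter consisted of 1 single region of the combined list. Dense and bare windows lay close together: a bare stretch of 286 kb begins at 14689923, inside the window that starts at 14600001.

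Between regions, gaps ranged from 0 bp to 398.8 kb in the combined list. The median gap was 2250 bp there and 2831 and 3022 bp in the replicates. Regions often came in close succession, since 404 of 1217 gaps (33.2%) were under 1 kb, against 28.2% and 28.9% in the replicates. Replicate 1 held regions at both flanks of 254 of these 404 gaps, and a single region ran across 9 of the 254. Replicate 2 held both flanks of 262, and a single region ran across 12 of them. At the other extreme, the 190 gaps of 20 kb or more in the combined list made up 78.5% of the bases outside regions. The 194 and 190 of the replicates made up 80.4% and 79.2%.

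Runs of at least 5 regions with no gap above 5 kb, called clusters here, numbered 73 in the combined list, and 64 and 56 in the replicates. With gaps of up to 2 kb there were 35 in the combined list, and with gaps of up to 10 kb 90, so the number depended on the bound. The 73 took up 15.1% of the arm and held 44.7% of the regions and 42.7% of the covered bases. A median cluster spanned 38.9 kb, contained 6 regions and was covered over 80.0%. The longest ran from 5066149 to 5209204 (143 kb) with 14 regions, the highest of score 1.76, and was covered over 80.7% in replicate 1 and 85.2% in replicate 2. The next, from 19847750 to 19961391 (114 kb), had 5 regions, one of them the widest of the arm, and was covered over 89.6% and 92.3%. The one from 13533912 to 13641405 (107 kb) was made of 17 regions, none wider than 16026 bp and none above a score of 1.26. This cluster was covered over 59.5% and 67.7%.

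Neighbouring regions resembled each other only slightly. Spearman's correlation between the scores of successive regions was 0.160 in the combined list (1217 pairs). In the combined list, replicate 1 and replicate 2 it was 0.179, 0.176 and 0.149 across gaps under 1 kb, and 0.117, -0.04 and -0.10 across gaps of 20 kb or more. Such weak values describe these lists and no more. Isolated regions, with 20 kb or more clear on both sides, numbered 47 in the combined list and 50 in each replicate. Their median scores were 0.55, 0.77 and 0.89, compared with 0.55, 0.76 and 0.73 for regions with a neighbour within 1 kb, so a lone region was not a weak one at the median.

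Long bare stretches, those without a listed region, took up a larger share of the arm past 14 Mb than before it. The lists cannot tell bases without the mark from bases where reads could not be placed. In all, 36 stretches of 100 kb or more held no region of any list and summed to 5.76 Mb, or 25.02% of the arm. The 18 past 14 Mb summed to 3.36 Mb over 9.01 Mb of arm, and the 18 before it to 2.40 Mb over the first 14 Mb. The longest of the latter was 182 kb, and the 5 longest of the arm were all past 14 Mb, as the plot of bare stretches along the arm shows. This boundary was placed after seeing the data.

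**Figure D2:**
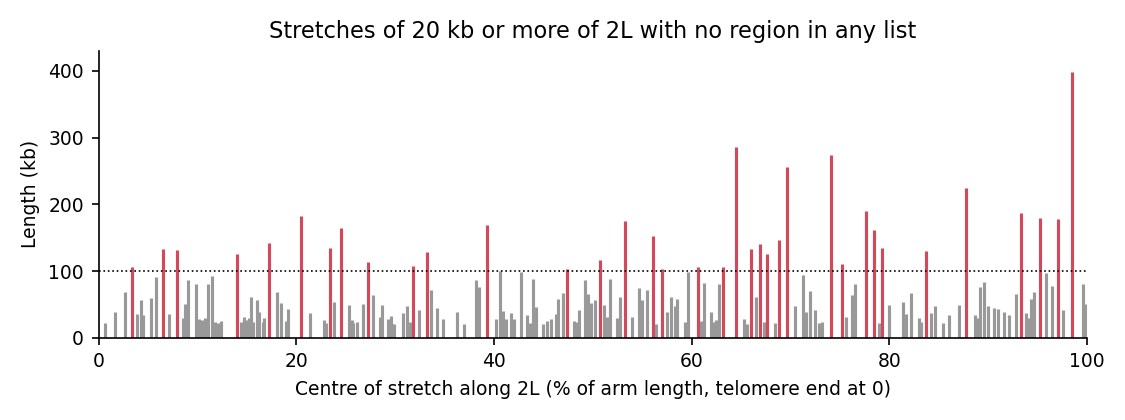
Length of each stretch of 20 kb or more of 2L that no region of the 3 lists touches, against the position of its centre from the telomere end at 0 to the centromere end at 100% of the arm length. Red lines mark the 36 stretches of 100 kb or more (dotted line), of which the 5 longest, from 225 to 398.8 kb, lie in the centromeric 40% of the plot.

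The longest bare stretch, 398.8 kb from 22478622 to 22877421, was bounded by weak and narrow regions, of 2546 bp (score 0.41) on the telomeric side and 1549 bp (score 0.22) on the other. Another, 286 kb from 14689923 to 14976369, began at the edge of a strong wide region. That region, from 14650762 to 14689911, measured 39150 bp with a score of 1.69, and 39164 and 38958 bp with scores of 1.67 and 1.72 in the replicates. A gap of 7050 bp separated it from one of 43775 bp, from 14599937 to 14643711, with a score of 1.84, and of 1.84 and 1.85 in the replicates. In the combined list this pair stood between gaps of 105525 and 286513 bp. Its description was added after its values were seen.

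Of the remaining long stretches, the one from 16917020 to 17190192 (273 kb) lay between regions of score 0.55 and 0.60. The one from 15911665 to 16167671 (256 kb) lay between regions of score 0.55 and 1.01. The fifth, from 20085799 to 20310871 (225 kb), separated a region of 4131 bp with score 1.46 from one of 26.6 kb with score 0.98. Regions at the borders of these 5 stretches therefore ranged in score from 0.22 to 1.69.

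Scores showed almost no trend along the arm. Spearman's correlation of score with position was -0.05 over the 1218 regions, and -0.06 and -0.05 in the replicates. Regions of score 1.5 or more made up 12.7% and 12.3% of the telomeric part in the replicates, 12.4% and 11.2% of the middle part and 9.06% and 8.17% of the centromeric part. Regions of score 2 or more numbered 22 in the combined list, 13 in the telomeric part, 3 in the middle and 6 in the centromeric part. Those in replicate 1 numbered 15, 7 and 7, and those in replicate 2 numbered 13, 4 and 8.

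**Figure D3:**
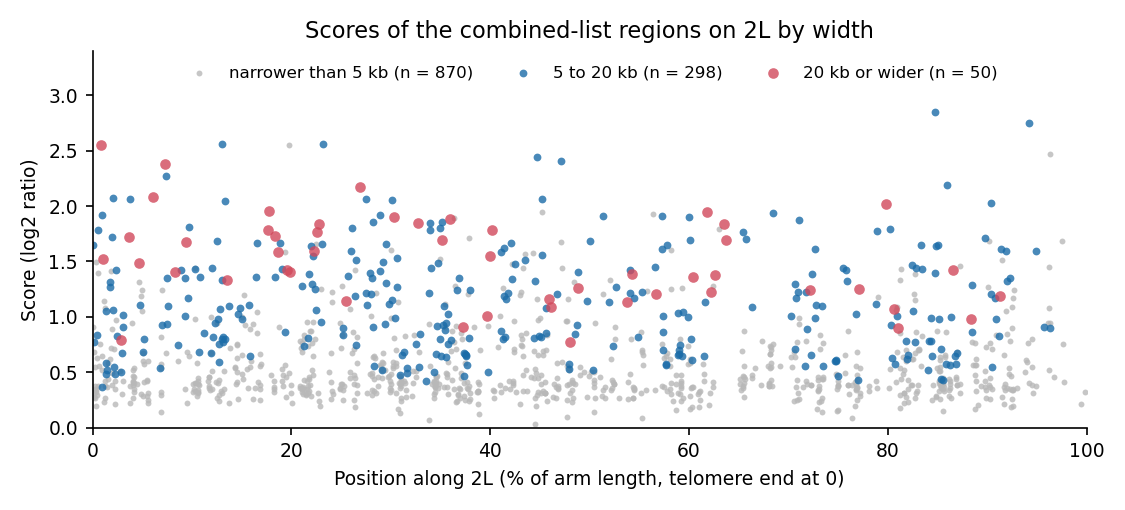
Score (log2 ratio) of each of the 1218 combined-list regions of 2L against its position from the telomere end at 0 to the centromere end at 100% of the arm length. Colours and sizes mark regions narrower than 5 kb, of 5 to 20 kb, and of 20 kb or more. The highest point, at 2.85, and the next, at 2.75, lie in the centromeric part, and no wide region lies at the centromere end.

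Between 10843137 and 18319420, over 7.48 Mb, no region of the combined list reached a score of 2, and the highest of 319 stood at 1.94. The replicates did hold such regions there, 4 in replicate 1 and 3 in replicate 2. The strongest, from 13165135 to 13169741 in replicate 1, had a score of 2.81. It lay inside a longer region of replicate 2, from 13162665 to 13174139 with a score of 2.04, and of the combined list, from 13162619 to 13175897 with a score of 1.91. Likewise, a region of replicate 2 from 16656778 to 16662620 (score 2.38) overlapped a combined region of 19979 bp with a score of 1.38. Where a list drew wider borders around the same place, its score was lower in these cases, which were chosen after their values were seen.

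The region of highest score on 2L ran from 19492815 to 19498336. Over its 5522 bp the score was 2.85, or a 7.20-fold ratio, with 2.87 and 2.85 in the replicates and widths of 5489 and 5488 bp. It stood 47846 bp from its neighbour on the telomeric side. The next ran from 21677222 to 21682492 in the proximal 2 Mb, with a score of 2.75, and of 2.78 and 2.73 in the replicates, and 58405 bp followed it without a region. These strongest regions were wider than the median region but far from the widest, and the replicates drew nearly the same borders around them, with starts at 19492820 and 19492844 for the first and at 21677287 and 21677277 for the second.

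Further ones lay toward the telomere. From 5316055 to 5328960 a region of 12.9 kb had a score of 2.56, with 2.67 and 2.50 in the replicates, and 134239 bp without a region followed it. From 2979091 to 2987979 a region of 8889 bp had a score of 2.56, with 2.51 and 2.65 in the replicates. The fifth, from 162117 to 202777, combined height with width: it measured 40.7 kb with a score of 2.55, and 40.4 kb ± 0.0191 (SD, n = 2) with scores of 2.58 and 2.53 in the replicates. None of these 5 regions was split in a replicate, and at least 96.7% of the bases of each were covered in both.

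The widest region of 2L, from 19878829 to 19961391 (82.6 kb, score 1.42), was made of 4 regions in replicate 1 and 3 in replicate 2. They covered 96.2% and 99.8% of it, with scores from 0.88 to 1.67 and from 0.87 to 1.69. The next widest, from 18319420 to 18391962 (72.5 kb, score 2.02), was nearly whole in each replicate, as a main region of 70283 bp in replicate 1 and of 72562 bp in replicate 2, with a score of 2.03 in both. It stood alone, with 134600 bp before it and 49744 bp after it without a region.

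The other 3 of the 5 widest were each split in at least 1 replicate. The region from 1884281 to 1943795 (59.5 kb, score 1.40) held 3 regions of replicate 1 and 2 of replicate 2. The one from 4478753 to 4536130 (57.4 kb, score 1.42) held 2 in replicate 1 and was 1 region of 56447 bp in replicate 2. The one from 7496716 to 7548904 (52.2 kb, score 1.85) held 2 in each, with largest pieces of 46632 and 33436 bp. Over all 50 wide regions, 23 were single regions in both replicates and 27 were split in at least 1, while at least 84.2% of the bases of every one were covered in both.

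Every region was checked against the replicates. A region of each replicate overlapped 831 of the 1218 (68.2%) by at least 1 base, close to the share over the whole combined list, 67.6%. Another 216 (17.7%) touched a region of 1 replicate, 88 in replicate 1 and 128 in replicate 2, and 171 (14.0%) touched none. The share found in both was 69.3% on 2R, 70.3% on 3L, 68.3% on 3R and 62.5% on X. Regions found in both had a median width of 4131 bp and a median score of 0.77. Those found in 1 replicate had 1753.5 bp and 0.36, and those found in neither 1321 bp and 0.35. The combined list was made from the same libraries, so these overlaps are a description of how the lists relate.

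Overlap with the replicates rose steeply with score and width. The classes were counted on 2L only, and whether the rise is particular to this arm was not tested. Below a score of 0.5, 167 of 542 regions (30.8%) were found in both replicates, and between 0.5 and 1 the number was 384 of 395 (97.2%). All 176 regions between 1 and 1.5 were found in both, as were 104 of the 105 above. By width, the share was 87.0% at 2 to 5 kb, 99.7% at 5 to 20 kb and 100% for the wide regions. The narrowest regions on 2L measured 1303 and 1302 bp in the replicates, against 1001 bp in the combined list. Of the 104 combined regions narrower than 1302 bp, 0 were found in both replicates, 19 in 1 and 85 in neither.

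**Figure D4:**
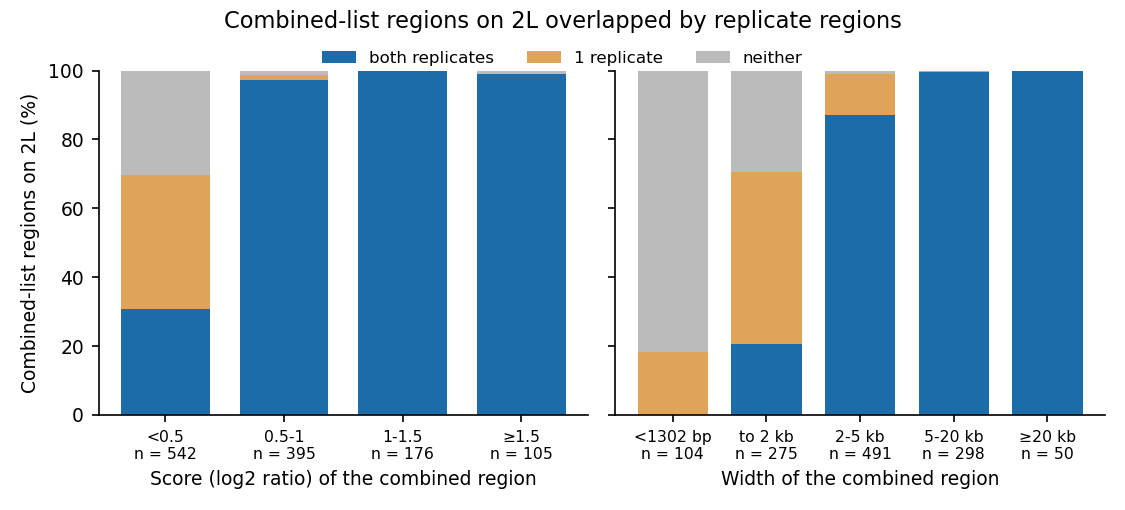
Share of the combined-list regions of 2L that overlap a region of both replicates, of 1 replicate or of neither by at least 1 base, by score class (left) and by width class (right), with the number of regions in each class. Overlap in both replicates rises from 30.8% below a score of 0.5 to 97.2% between 0.5 and 1, and is 0 for regions narrower than 1302 bp.

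The 1 strong region without a counterpart ran from 4540964 to 4541998. It had a score of 2.55, or a 5.85-fold ratio, over 1035 bp, and gaps of 4833 and 5401 bp around it. On the telomeric side of it lay the wide region that ends at 4536130. The next highest of the 171 regions found in neither replicate had a score of 0.74, so this one stood apart from the rest of them. Its width was below the narrowest region of the replicate lists.

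Several of the others sat together in the sparse stretch around 15.7 Mb. From 15650040 to 15713202 the combined list had 12 regions with scores from 0.38 to 0.74, of which 3 were found in both replicates, 2 in 1 and 7 in neither. Of the 6 highest-scoring regions that neither replicate held, 4 were among them, with scores of 0.74, 0.70, 0.67 and 0.55. Replicate 1 placed 4 regions there and replicate 2 another 4. This patch was picked after its values were seen.

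Seen from the replicates, 995 regions of replicate 1 on 2L (90.8%) and 956 of replicate 2 (87.2%) overlapped a region of the other. These shares were taken on 2L only, and whether they differ from those of the whole replicate lists was not tested. Those that did not, 101 and 140, had median scores of 0.51 and 0.52 and median widths of 1626 and 1688.5 bp, compared with 0.80 and 0.81 and 3154 and 3359 bp for the overlapping ones. Only 2 regions of each replicate were outside the combined list, with scores of 0.56 or less. The highest-scoring region of 1 replicate alone was in replicate 2, from 17414990 to 17419949 (4960 bp, score 1.03). Close by, from 17421581 to 17426802, lay another of replicate 2 (score 0.85), and one more was at 2410563 (score 0.88). In replicate 1 the highest were at 14156497 (score 0.85) and at 15687624 (score 0.77). The combined list held a region at all 5 places, with scores from 0.50 to 0.66.

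Counted over bases, 5.32 Mb of 2L was covered in both replicates and 6.26 Mb in either, a Jaccard index of 84.9%. Of the combined list's bases, 79.5% were covered in both replicates, 13.4% in 1 and 7.07% (0.473 Mb) in neither. Across the 46 windows of 500 kb the replicates differed by 1.23 percentage points at the median and by 7.05 at most. That largest difference was from 7500001 to 8000000, at 29.3% in replicate 1 and 36.3% in replicate 2. Replicate 2 was the higher in 34 of the 46 windows.

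Borders were placed alike in the regions that could be matched singly. Regions missing or split in a replicate were left out, 182 of them met by 2 or more regions in at least 1 replicate. Of the 1218 combined regions, 637 matched exactly 1 region in each replicate that matched no other. In these, starts in the replicates lay 107 bp apart at the median and ends 96 bp, with 73.8% of starts and 73.6% of ends within 200 bp. Scores differed by 0.09 at the median and by 0.23 or less in 90%, and replicate 1 was the higher in 51.0%. The combined region was wider than both replicate regions in 84.8% of cases and narrower than both in 0. Its score lay between theirs in 46.6%, below both in 53.4% and above both in 0. At the median the combined score minus the mean of the replicates was -0.05, and the combined region was 200 bp wider than their mean.

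Compared with the other large arms, 2L shared its drop toward the centromere with 3L. The 50% of 2L on the telomere side was covered over 30.3% ± 0.645 (SD, n = 2) and the 50% on the centromere side over 20.0% ± 0.614, a difference of 10.4 percentage points ± 0.0308. On 3L the difference was 10.2 ± 0.257, on X 5.19 ± 0.308, on 2R 3.35 ± 0.953 and on 3R 1.53 ± 0.200. The difference on 2L was within the replicate spread of that on 3L, and beyond the spread of the other 3. An exact permutation test of 2 values against 2 cannot give a p below 0.333. That was its value for 2L against X, 2R and 3R. It treats the arms as separate samples, although all arms were measured in the same 2 replicates, and no paired test was run. For these reasons no difference can be called.

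**Figure D5:**
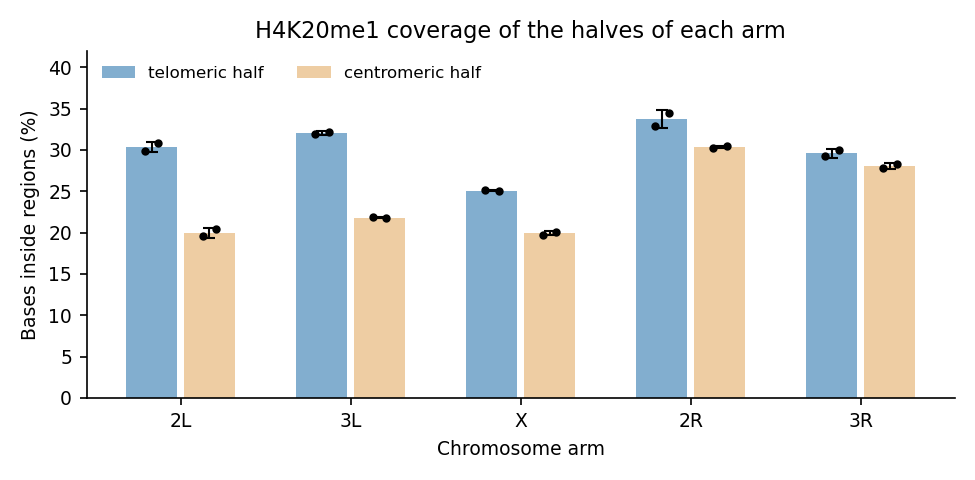
Share of bases inside H4K20me1 regions in the 50% of each large arm next to the telomere (blue) and the 50% next to the centromere (orange). Bars are means of the 2 replicates, black points the replicates and error bars 1 SD. The 2 bars of 2L stand at 30.3% and 20.0%, a gap of 10.4 percentage points that is close to that of 3L and larger than those on X, 2R and 3R.

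Score and spacing also varied among arms, and here too the exact test cannot give a p below 0.333, so no difference was called. The median score on 2L was 0.743 ± 0.00975 (SD, n = 2), against 0.772 ± 0.00566 on 3R, 0.783 ± 0.0085 on 3L, 0.796 ± 0.00298 on 2R and 0.820 ± 0.0101 on X. In the combined list 2L was not the lowest, at 0.556 against 0.554 on 3R, 0.585 on 3L, 0.567 on 2R and 0.573 on X. Gaps of 100 kb or more took up 30.2% ± 1.33 of 2L, compared with 32.5% ± 0.390 of X, 25.5% ± 1.47 of 3R, 24.7% ± 1.14 of 3L and 20.9% ± 1.42 of 2R. The number of regions per Mb on 2L, 47.6 in both replicates, was near the 47.7 ± 0.547 of 3L, and the share of gaps under 1 kb, 28.5% ± 0.452, was near the 28.9% ± 1.72 of 3L. The heterochromatic sequence 2LHet, assigned to the same arm, held 2 regions in the combined list and 1 in each replicate.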

How the data were processed

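H4K20me1 ChIP-seq was carried out on 2 replicates, each with an input. Per the submitters' processing notes, Bowtie 0.12.7 was used. The deposited lists hold regions of significant enrichment on FlyBase release 5, per the file headers, each with 1 score that was read as a log2 ratio. The sources used here do not name the region caller, its threshold or how the replicate set was built, and depth is unknown, so no interval that needs it was computed.

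Regions on 2L were taken from the combined list and set against both replicate lists. Overlap required 1 base. Coverage, gaps, clusters and windows were computed with Python 3.11.15, numpy 2.4.6, pandas 2.3.3 and scipy 1.17.1, and drawn with matplotlib 3.10.9. The interval functions were tested on simulated lists. Values over replicates are means ± SD, and no result was tested over regions, which are not replicates. Binomial intervals over regions and bases served only as bounds for the alternatives of the 2 overlap results. Named regions were the 5 widest and 5 of highest score, the 5 longest bare stretches, the 5 most and least covered 500 kb windows, the 5 most covered 100 kb windows, the 3 longest clusters and the 5 highest-scoring regions of 1 replicate. The arm, these rules and the bounds on width and score were chosen with earlier results of these data known. Genes and sequences were not used, for want of an annotation and a genome of release 5. Alternatives were other lists, filters, merging, overlap rules, end lengths and leaving out each replicate.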

Additional observations from a re-analysis of the deposited data

How the results depend on the processing

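The 12 results were recomputed under 53 alternatives, of which 31 moved. The other 22 stayed within their bound. It was the replicate spread or, for a count, 1.5 times. The latter was wide and took in the fall from 1218 to 814 regions on merging across gaps under 1 kb. For the share found in both replicates and the Jaccard index, the bound was instead a binomial interval that treats regions or bases as independent. Some of the alternatives could not have moved. Leaving out 1 of 2 replicates shifts their mean by less than their SD, for coverage and both ends. Keeping regions of 1 kb or more removed none, since the narrowest measured 1001 bp. No alternative turned the direction of a difference. Coverage of 2L was 29.1% in the combined list, 23.1% for bases in both replicates and 18.98% above the median score. That score filter left 589 regions, of which 98.98% were found in both replicates, and gave a Jaccard index of 82.7%. The same merging gave a Jaccard index of 85.5%, a median width of 4031 bp and a median gap of 5348 bp. Requiring 50% of a region in each replicate left 64.9%. Leaving out a replicate gave 24.7% to 25.6% coverage, 75.5% to 78.7% of regions found, and -17.9 to -17.6 and 10.9 to 11.9 percentage points at the proximal and distal ends. The proximal end differed from the rest by -21.95 percentage points over 1 Mb, -14.2 over 3 Mb, -20.5 in the combined list and -13.6 above the median score. The distal end differed by 16.1, 8.16, 12.9 and 9.22 in the same order. In the replicate lists the median width was 2898.5 and 2981 bp, the median gap 2831 and 3022 bp, the median score 0.75 and 0.74, and gaps under 1 kb 28.2% and 28.9%. Gaps under 500 bp were 22.9% and under 2 kb 47.9%. Clusters with gaps of 2 kb or less numbered 35. Score against position gave -0.0725 over regions of 2 kb or more. The cause of these shifts was not tested, apart from those that follow from a stricter filter or a changed bound. No paired analysis was possible between ChIP and input because the 2 replicates form 1 group and the inputs have no list here. The arms and the parts of 2L are paired within each replicate, and no paired test between them was run. With depth unknown, no counting interval could be given.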
